A study of Mus musculus with 45 samples.

Results

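The genes described here are those of the mouse respiratory chain and ATP synthase, both the 13 encoded on mitochondrial DNA and the 90 encoded in the nucleus. They were chosen by symbol and by level from the 55335 genes of the deposited expression tables. A gene was selected on its group means, given below as a description: it was kept when its symbol began with 1 of 20 prefixes (such as mt-Nd, Nduf, Sdh, Uqcr, Cox and Atp5) and its mean reached 1 FPKM in at least 1 group of libraries. FPKM count fragments per kilobase of a transcript, set against all mapped fragments of a library, so levels of different genes can be compared per length. Of 117 genes with these prefixes, 7 pseudogenes and Cox6a2 were removed by name and 6 stayed below 1 FPKM in every group, which left 103. The genes just inside the limit were Cox7a1, at 1.18 FPKM in its highest group, Sdhaf3 at 1.31 FPKM and Atp5s at 1.97 FPKM, and just outside it were Ndufa4l2 at 0.537 FPKM and Cox4i2 at 0.225 FPKM. The nuclear genes hold 37 complex I, 4 complex II, 8 complex III, 12 complex IV and 15 complex V (ATP synthase) genes, 8 complex I and 4 complex II assembly factors, and 2 other genes with an Atp5 symbol. They were grouped by symbol and lie on 19 chromosomes. In the annotation, 33 of the 90 share exon bases with another gene. Among those named below these are Ndufa9, Ndufb8, Ndufs1, Cox4i1, Sdhaf2, Sdhaf4, Uqcrb, Cox5a, Cox6c, Atp5a1 and Atp5g2. How the authors assigned fragments over shared bases, or those that also fit a processed pseudogene, is not given in the sources used here. The 7 pseudogenes removed by name reached at most 1.26 FPKM in any group.

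The respiratory chain passes electrons from NADH (at complex I) and succinate (at complex II) through complex III and cytochrome c to oxygen at complex IV, and complexes I, III and IV pump protons whose return drives ATP synthase. Complex II is built from nuclear genes alone, whereas the other complexes combine nuclear subunits with a few subunits made inside the mitochondrion. The mitochondrial mRNAs are cut from long transcripts of each DNA strand, mostly at the tRNAs that lie between the genes, so that their levels depend on transcription, cleavage and the stability of each product. Tumour lines differ in how far they use this pathway beside glycolysis.

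The RNA came from mouse CT26 cells, a colon carcinoma line, and Hepa1-6 cells, a line from liver, both labelled wild type where a drug was given. Each line then received DMSO, the solvent, or a compound known here only by its label, stk, for 48 h. In the knockdown experiment, whose cells had no drug and were collected 24 h after seeding, CT26 carried the control hairpin shLucif (against luciferase) or 1 of 3 hairpins (sh1, sh2 and sh3) against Soat1, which encodes an enzyme that esterifies cholesterol, and Hepa1-6 carried shLucif or a scrambled hairpin. Each of the 10 groups has 3 libraries. For stk these are 3 of 6 labelled samples in either line, those whose label matched a column. Soat1 hairpins in Hepa1-6 are also labelled, matched no column and are not analysed here. Nothing in the labels says that these came from separate cultures, so p-values measure the spread between libraries, which may be technical. The FPKM summed to between 314827 and 335812.8 per library, and 11159 to 11555 genes reached 1 FPKM. Read totals are unknown. The tables of the experiments were normalized separately, so tests were made only inside each.

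Soat1 was lower with every hairpin: the shLucif libraries of CT26 held 19.7, 19.8 and 20.2 FPKM, those of sh1 3.29, 3.23 and 3.28 FPKM, those of sh2 3.44, 3.55 and 3.41 FPKM and those of sh3 2.52, 2.54 and 2.71 FPKM. The 3 libraries labelled Hepa1-6 shLucif went against their label. Soat1 was 12.7, 12.8 and 13.6 FPKM in them, against 0.159, 0.182 and 0.0977 FPKM in Hepa1-6 scramble and 0.131, 0.158 and 0.130 FPKM in Hepa1-6 with DMSO. The 13 hepatocyte markers summed to between 67.8 and 76.2 FPKM in them (4 genes at 1 FPKM or more), against 407 to 444 FPKM in scramble and 401.6 to 434 FPKM in Hepa1-6 with DMSO (8 genes each). In CT26 shLucif the sum was 5.77 to 6.99 FPKM (1 gene), so by these markers the libraries lay between the lines. So they did by 11 intestinal markers, at 287 to 302 FPKM (25.1 to 25.5 FPKM in CT26 shLucif, 2059 to 2122 FPKM in scramble). By 8 fibroblast markers they lay below both, at 43.8 to 49.9 FPKM (128 to 130 FPKM in CT26 shLucif, 247 to 266 FPKM in scramble). The muscle markers, given further below, lay above both. A nuclear gene with a mitochondrial product also separated these libraries from scramble: Slc25a4, an ADP/ATP carrier of the inner membrane, was 152, 150.4 and 148 FPKM in the libraries labelled Hepa1-6 shLucif, 169, 166 and 168 FPKM in CT26 shLucif and 0.0880, 0.166 and 0.154 FPKM in scramble, and is listed at 0 in all 6 Hepa1-6 libraries of the drug experiment. Results that use these libraries are therefore given apart. In CT26 with DMSO, 1 of 11 intestinal epithelium markers reached 1 FPKM (Krt20), while Cdx1, Epcam and Fabp1 were listed at 0. The same markers were higher in Hepa1-6 with DMSO, where 6 of 11 reached 1 FPKM and the sum was 1552 to 1597 FPKM against 26.9 to 30.98 FPKM, mostly from the keratins Krt18 (937 ± 19.9 FPKM, SD, n = 3) and Krt8 (404 ± 9.78 FPKM, SD, n = 3). The colon origin of CT26 is thus not visible in these markers.

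Neighbouring mitochondrial genes overlap, and since a fragment over the shared bases fits both, levels of such neighbours are not independent. The sequences of the 3 larger overlaps are shown because several results below concern these pairs; they are from the mouse genome build GRCm38 (annotation GENCODE vM21), forward strand, with the shared bases in capitals.
mt-Atp8 and mt-Atp6 (same strand, 43 shared bases, chrM:7907-7989): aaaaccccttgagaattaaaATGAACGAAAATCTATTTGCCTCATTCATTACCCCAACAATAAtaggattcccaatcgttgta
mt-Nd4l and mt-Nd4 (same strand, 7 shared bases, chrM:10147-10193): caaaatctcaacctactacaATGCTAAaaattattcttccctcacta
mt-Nd5 and mt-Nd6 (opposite strands, 14 shared bases, chrM:13532-13585): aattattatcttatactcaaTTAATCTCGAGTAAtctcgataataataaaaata
The first overlap is 21.1% of the annotated length of mt-Atp8, which at 204 bases is the shortest of the 13 genes, and 6.3% of mt-Atp6. mt-Nd6 is the only one of the 13 on the reverse strand. Whether the authors counted by strand is not given in the sources used here, so its RNA cannot be told apart from RNA antisense to it.

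The 13 mitochondrial mRNAs were far more abundant than the nuclear ones in every library. They made up 12.4 to 13.6% of all FPKM in the drug experiment and 8.78 to 14.3% in the knockdown experiment, and the 90 nuclear genes 1.36 to 1.56% over both. In each of the 10 groups mt-Co1, the catalytic core of complex IV, was the highest of the 13 (group means 6072 to 10253 FPKM) and mt-Nd3, a small complex I subunit, the lowest (292 to 599 FPKM). Atp5b, the catalytic beta subunit of ATP synthase, was the highest nuclear gene in each group (361 to 440.4 FPKM), and the median of the nuclear genes was 31.1 to 35.5 FPKM. These orders describe FPKM, and the shortest genes (mt-Atp8, mt-Nd4l, mt-Nd3) are close to the length of a sequenced fragment, whose part in their values was not tested.

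The summed mitochondrial over the summed nuclear FPKM was 8.46, 8.29 and 8.32 in CT26 with DMSO and 8.37, 8.52 and 8.19 in Hepa1-6 with DMSO, so the libraries of both lines overlapped. With stk it was 9.05, 9.45 and 9.01 in CT26, above every DMSO library, and 8.36, 8.81 and 9.56 in Hepa1-6, where the groups overlapped. In the knockdown experiment it was 7.15, 7.38 and 7.84 with shLucif in CT26, 5.94, 6.2 and 7.58 with sh1, 6.85, 7.12 and 7.04 with sh2 and 8.17, 7.84 and 7.74 with sh3. Library 3 of sh1 stood apart from the other two of its group, and so did library 1 of those labelled Hepa1-6 shLucif (9.96, against 7.79 and 7.64). The scramble libraries were at 9.11, 9.94 and 10.2, the last being the highest of all. In these bulk libraries fewer cells with a transcript and less of it per cell cannot be told apart.

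**Figure D1:**
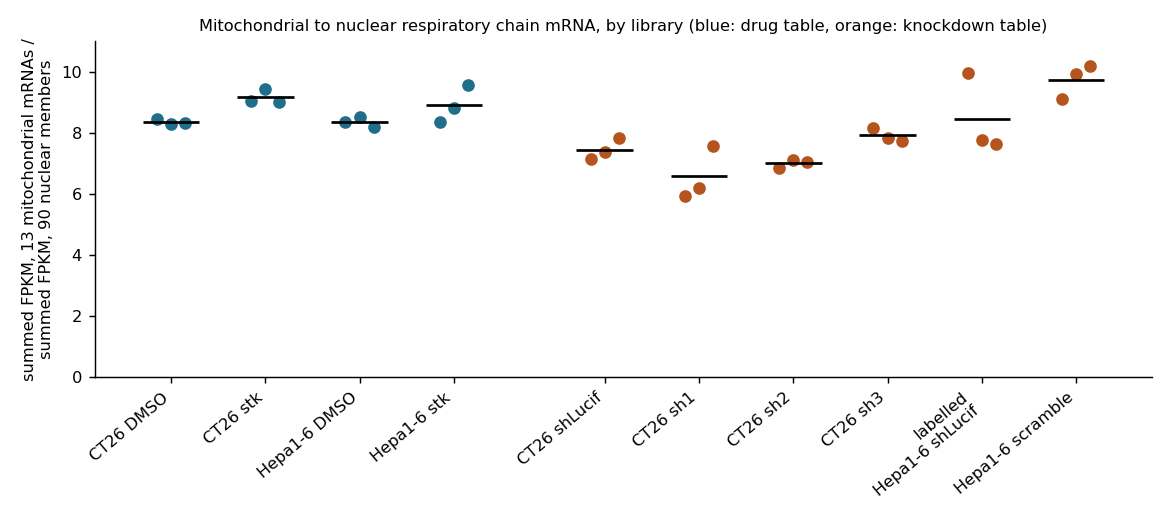
Summed FPKM of the 13 mitochondrial mRNAs divided by that of the 90 nuclear genes, for each of the 30 libraries (points) with group means (lines), blue for the drug and orange for the knockdown experiment. The 3 CT26 stk libraries lie above the CT26 DMSO libraries, and library 3 of sh1 and library 1 of those labelled Hepa1-6 shLucif lie above the other libraries of their groups.

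The lines were first compared with DMSO alone. The mitochondrial mRNAs did not move as a block: in Hepa1-6 against CT26, 6 of 13 were higher and 6 lower. Over all genes tested 76.8% were called (limma, two-sided, Benjamini-Hochberg adjusted p under 0.05), 38.4% higher and 38.5% lower. The libraries of the lines did not overlap in any of the 13, 7 of which were higher and 6 lower, against 39.8% and 39.9% of all genes. The 3 largest decreases lay at the end of the mitochondrial map. mt-Nd5, the last complex I gene of the forward strand, was 1913, 1962 and 1941 FPKM in CT26 and 992, 986 and 958 FPKM in Hepa1-6, a log2 difference of -0.99 (SE 0.0314, adjusted p = 1.32e-10). mt-Nd6, its neighbour on the other strand, was 1567, 1566 and 1609.6 against 688, 719.6 and 676 FPKM, a difference of -1.19 (SE 0.0456, adjusted p = 7.02e-10). mt-Cytb, the cytochrome b of complex III and the last gene of the map, was 4570.0, 4663 and 4565 against 2982, 3046 and 3035 FPKM, a difference of -0.61 (SE 0.0285, adjusted p = 3.99e-09). In these 3 genes every Hepa1-6 library was below every CT26 library.

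Among the other mitochondrial genes the line differences were smaller. mt-Nd2, a complex I subunit near the start of the map, was 2426, 2390.0 and 2482 FPKM in CT26 and 2050.2, 2048 and 2074 FPKM in Hepa1-6, a difference of -0.24 (SE 0.0243, adjusted p = 3.33e-06) with no overlap. mt-Nd4l (-0.16, adjusted p = 0.00448) and mt-Nd4 (-0.10, adjusted p = 0.0278), which share bases, were also lower, but quantile normalization turned both upward. The largest increase was that of mt-Co1, 7531, 7442 and 7448 FPKM in CT26 and 9072, 9359.6 and 9553 FPKM in Hepa1-6, a difference of 0.32 (SE 0.0362, adjusted p = 9.23e-06). mt-Nd3, mt-Nd1, mt-Co3, mt-Atp6 and mt-Atp8 were higher by 0.23, 0.22, 0.18, 0.13 and 0.11. mt-Co2, the complex IV subunit that takes electrons from cytochrome c, had a difference of 0.04 that was not called (adjusted p = 0.167).

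Of the nuclear genes, 88 reached the limit for testing (1 FPKM in 3 libraries of the model), and 30 were higher and 24 lower in Hepa1-6. Their share called, 61.4%, was below the 76.8% of all genes. The median nuclear log2 difference was -0.02, against 0.01 for all genes. Complex I gave 13 higher and 8 lower of 37, complex II 2 and 2 of 4, complex III 3 and 2 of 8, complex IV 3 and 3 of 11, and complex V 2 and 7 of 15. Each complex of the chain thus held genes called in both directions.

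The proton channel of ATP synthase gave the largest fall among the nuclear genes. Atp5g2, which encodes a copy of the c subunit of that channel, was 113, 120.0 and 116 FPKM in CT26 and 61.1, 64.4 and 61.5 FPKM in Hepa1-6, a difference of -0.89 (SE 0.0428, adjusted p = 4.87e-09) with no overlap. Other genes also encode the c subunit. Of these, Atp5g3 was called lower as well (-0.355), and Atp5g1 had a difference of 0.04 that was not called (adjusted p = 0.554). In complex I, Ndufa1, a small membrane subunit, was 59.5, 63.8 and 54.9 against 34.5, 35.8 and 33.9 FPKM, a difference of -0.75 (SE 0.0904, adjusted p = 1.46e-05). No library of Ndufa1 crossed into the other group.

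In complex II, the iron-sulphur subunit Sdhb was 54.2, 54.1 and 51.03 FPKM in CT26 and 35.1, 32.7 and 35.6 FPKM in Hepa1-6, a difference of -0.61 (SE 0.0459, adjusted p = 2.53e-07). In complex III, the Rieske protein Uqcrfs1 and the small subunit Uqcr10 were higher and the small subunit Uqcrb was lower. Uqcrfs1 was 61.6, 64.8 and 58.4 against 114, 111 and 111 FPKM (0.86 (SE 0.0422, adjusted p = 6.13e-09)). Uqcr10 was 63.8, 69.3 and 71.96 against 145, 140.3 and 144 FPKM (1.06 (SE 0.0769, adjusted p = 1.91e-07)). Uqcrb was 99.9, 102 and 97.9 against 60.1, 61.2 and 66.2 FPKM (-0.67 (SE 0.0454, adjusted p = 9.94e-08)). All 3 separated the lines without overlap, so subunits of the same complex differed in opposite directions. In complex IV, Cox6c, a small nuclear subunit, was 29.7, 30.4 and 30.4 against 65.1, 63.5 and 65.5 FPKM (1.08 (SE 0.0646, adjusted p = 3.46e-08)), while Cox5a, a matrix-side subunit, was lower by -0.59 (adjusted p = 8.74e-05). The largest increase of all was that of Atp5sl at 1.17 (adjusted p = 2.90e-09), followed below Cox6c by the complex II assembly factor Sdhaf4 at 1.06.

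**Figure D2:**
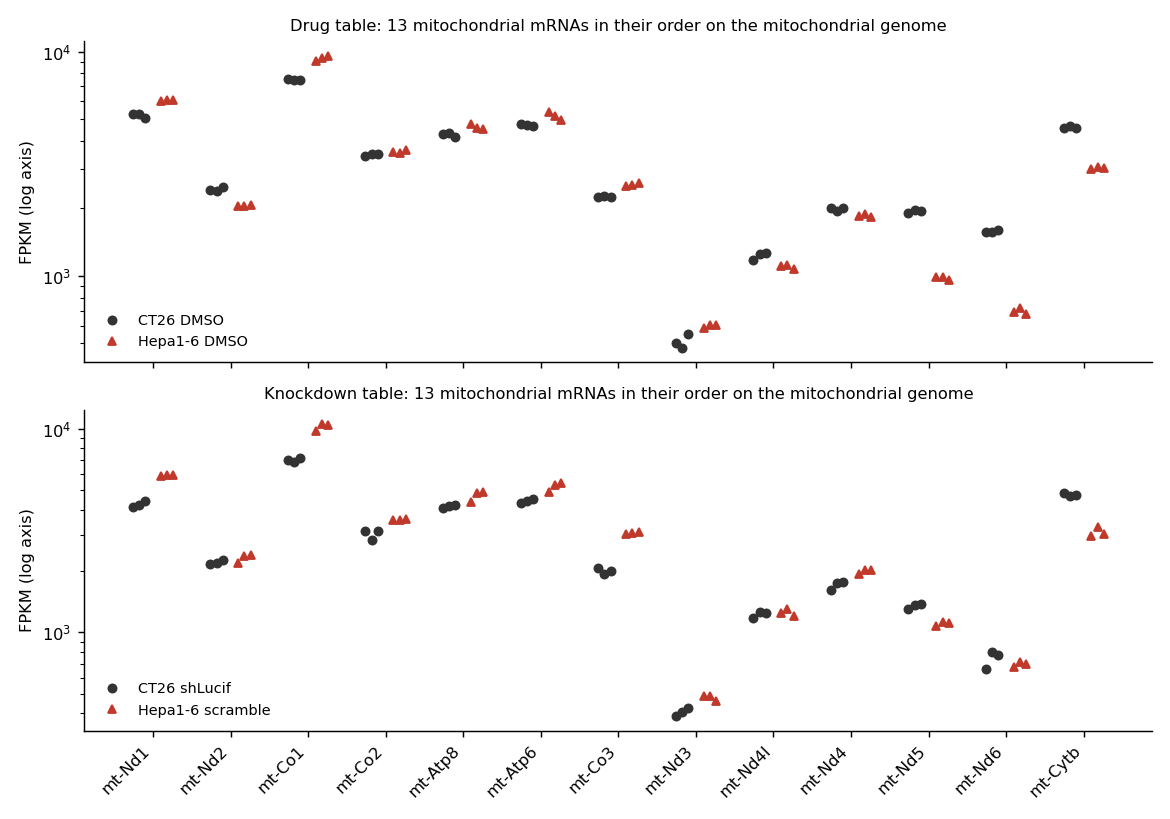
FPKM (log axis) of the 13 mitochondrial mRNAs in their order on the mitochondrial genome, with each library as a point, for the DMSO groups of the drug experiment (top) and for CT26 shLucif and Hepa1-6 scramble of the knockdown experiment (bottom). mt-Cytb and mt-Nd5 are lower in Hepa1-6 in both panels, and mt-Nd6 separates the lines with DMSO but not in the knockdown experiment.

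The lines differed in other genes that serve the mitochondrion too. Slc25a4 was 239, 233 and 233 FPKM in CT26 with DMSO and is listed at 0 in Hepa1-6, and Slc25a5, another ADP/ATP carrier, was 538, 534 and 517 against 184, 191 and 202 FPKM (log2 difference -1.46, adjusted p = 6.06e-11). Ucp2, an inner-membrane carrier of the uncoupling protein family, was higher in Hepa1-6, 4.35, 4.12 and 4.04 against 17.3, 17.3 and 19.6 FPKM (1.88, adjusted p = 4.17e-10). Both ADP/ATP carriers were thus lower in Hepa1-6 and the third carrier was higher. The large mitochondrial ribosomal RNA mt-Rnr2 was 479, 438 and 494 against 129.8, 111 and 139 FPKM (-1.89). The other ribosomal RNA, mt-Rnr1, differed less, 164, 145 and 175 against 135, 125 and 133 FPKM. Of 19 mitochondrial tRNAs tested 15 were lower and 2 higher (78.9% and 10.5%), and the part of their short length in these values was not tested. Of 16 genes of the TCA cycle and pyruvate entry 12 were lower and 2 higher (75% and 12.5%, against 38.5% and 38.4% of all genes), among the lower ones Dld, the shared E3 subunit of its dehydrogenases (-1.10), and Pdha1 of pyruvate dehydrogenase (-1.04). Of 78 mitochondrial ribosomal protein genes 39 were higher and 21 lower (50% and 26.9%). Hspa9, the mitochondrial Hsp70, was 463, 452 and 460.1 against 179.6, 179.9 and 187 FPKM (-1.32).

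The knockdown experiment offers a second pair of lines, CT26 shLucif and Hepa1-6 scramble, in which line and control hairpin cannot be told apart. There 4 mitochondrial mRNAs were higher and 2 lower in Hepa1-6, and 21 nuclear genes were higher and 50 lower of 90, where 79.9% of all genes were called (39.1% higher, 40.8% lower). Without overlap, 21 nuclear genes lay above and 53 below, against 40.5% and 41.8% of all genes. mt-Cytb was 4818, 4693 and 4750.1 FPKM in CT26 and 2958, 3273 and 3031 FPKM in Hepa1-6 (-0.62 (SE 0.0748, adjusted p = 1.42e-06)) and mt-Nd5 1304, 1366 and 1383 against 1076, 1128 and 1109 FPKM (-0.29 (SE 0.0867, adjusted p = 0.00632)). Both were lower without overlap, as with DMSO. mt-Nd6, in contrast, was 659.6, 803 and 777 against 676, 717 and 697 FPKM with overlapping groups (difference -0.09, adjusted p = 0.654). Its level in CT26 was thus about as low here as in Hepa1-6, and the difference seen with DMSO was not seen in this pair; the tables were normalized separately and the difference between the pairs was not tested.

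Of the 30 nuclear genes called higher with DMSO, 17 (56.7%) were called higher in the second pair. They made up 81.0% of its higher calls among the 88 genes tested in both. Of the 24 called lower, 23 (95.8%) were lower again, 47.9% of the second pair's lower calls. The same agreement over all genes is not given here, and in the second pair 39.1% of all genes were called higher and 40.8% lower. Opposite calls were made for 4 genes, the complex I subunits Ndufs4 and Ndufs5, Cox6a1 of complex IV and Atp5h of ATP synthase. Among the shared ones, Atp5g2 was 149, 142 and 137 FPKM in CT26 and 57.03, 56.4 and 50.5 FPKM in scramble (-1.37 (SE 0.0532, adjusted p = 1.17e-12)), and Ndufa1, Sdhb and Cox5a were lower by -1.33, -1.05 and -1.16. The c subunit genes Atp5g3 and Atp5g1 were called lower at -0.215 and -0.231, the latter not called with DMSO. Atp5a1, the alpha subunit of ATP synthase, showed a much larger difference here, 149, 145 and 149 against 356, 340.3 and 348 FPKM (1.23), than with DMSO, 294, 296 and 286 against 347, 337 and 334 FPKM (0.22).

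In CT26, each Soat1 hairpin was compared with shLucif, and the 3 comparisons share those control libraries. Every mitochondrial mRNA that was called was lower: 8 of 13 with sh1, 5 with sh2 and 2 with sh3. Single libraries moved these counts: the sh2 count was 3 without shLucif library 1, without shLucif library 3 or without sh2 library 3, and the sh3 count was 1 without shLucif library 1 or 3 or without sh3 library 2 or 3. Over all genes 37.8% were called with sh1 (19.1% higher, 18.7% lower), 38.9% with sh2 (18.9% and 20%) and 52.5% with sh3 (30.9% and 21.6%). The medians of the 13 mitochondrial mRNAs were -0.21, -0.10 and -0.04 on the log2 scale, against 0.00, -0.01 and 0.04 for all genes. The mitochondrial share called lower was above that of all genes for sh1 and sh2 and below it for sh3. Groups that did not overlap were counted as well. With sh1 no mitochondrial mRNA lay wholly above and 8 lay wholly below the controls (25% and 25.1% of all genes), with sh2 1 and 8 (25.1% and 27%), and with sh3 3 and 1 (35.8% and 26%).

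The overlapping pair that encodes the mitochondrial subunits of ATP synthase gave the largest differences among the called mitochondrial mRNAs with sh1 and sh2. mt-Atp8 was 4079, 4160.0 and 4231 FPKM with shLucif, 2579, 2790.3 and 3277 FPKM with sh1 (-0.54 (SE 0.0722, adjusted p = 0.000182)), 3274, 3139 and 3084 FPKM with sh2 (-0.39 (SE 0.0722, adjusted p = 0.00143)) and 4358, 4058 and 4006 FPKM with sh3 (-0.01 (SE 0.0722, adjusted p = 0.948)). Every library of sh1 and sh2 was below every control library, whereas the sh3 libraries overlapped the controls. mt-Atp6 was 4301, 4415 and 4521 FPKM with shLucif, 2763, 2946 and 3593 FPKM with sh1 (-0.52 (SE 0.0793, adjusted p = 0.000442)), 3546, 3423 and 3347 FPKM with sh2 (-0.36 (SE 0.0793, adjusted p = 0.00432)) and 4746, 4395 and 4356 FPKM with sh3 (0.03 (SE 0.0793, adjusted p = 0.795)), again with overlap only for sh3. With sh2 mt-Nd6 had a value of 0.38 that was not called (adjusted p = 0.137), with its 3 libraries above the controls.

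Only mt-Cytb and mt-Co2 of the mitochondrial mRNAs were called lower with all 3 hairpins. The share of all genes called so with all 3 is not given here. mt-Cytb was 4818, 4693 and 4750.1 FPKM with shLucif, 3613, 3598 and 3856 FPKM with sh1 (-0.37 (SE 0.0425, adjusted p = 6.01e-05)), 3878, 3758 and 3634 FPKM with sh2 (-0.34 (SE 0.0425, adjusted p = 0.000102)) and 4296, 4051 and 3921 FPKM with sh3 (-0.22 (SE 0.0425, adjusted p = 0.00125)), and no hairpin library reached the control range. mt-Co2 was 3158, 2829 and 3141 FPKM with shLucif, 2289, 2416 and 2555 FPKM with sh1 (-0.33 (SE 0.0774, adjusted p = 0.00627)), 2639, 2494 and 2473 FPKM with sh2 (-0.26 (SE 0.0774, adjusted p = 0.0203)) and 2962, 2398 and 2465 FPKM with sh3 (-0.23 (SE 0.0774, adjusted p = 0.0287)). Here 1 sh3 library lay inside the control range. mt-Co3, a core subunit of complex IV, was lower with sh1 (-0.17, adjusted p = 0.0183) and sh2 (-0.16, adjusted p = 0.0222) and had a value of -0.13 with sh3 (adjusted p = 0.0503). mt-Nd3, mt-Nd2 and mt-Co1 were called with sh1 alone, at -0.47, -0.22 and -0.21. mt-Nd3 was 388, 405 and 423 FPKM with shLucif and 266, 307 and 303 FPKM with sh1, without overlap. Library 3 of sh1 was the highest of its group in the summed mitochondrial mRNAs (33993 FPKM, against 28308 and 29027 FPKM), and without it all 13 mitochondrial mRNAs were called lower with sh1.

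**Figure D3:**
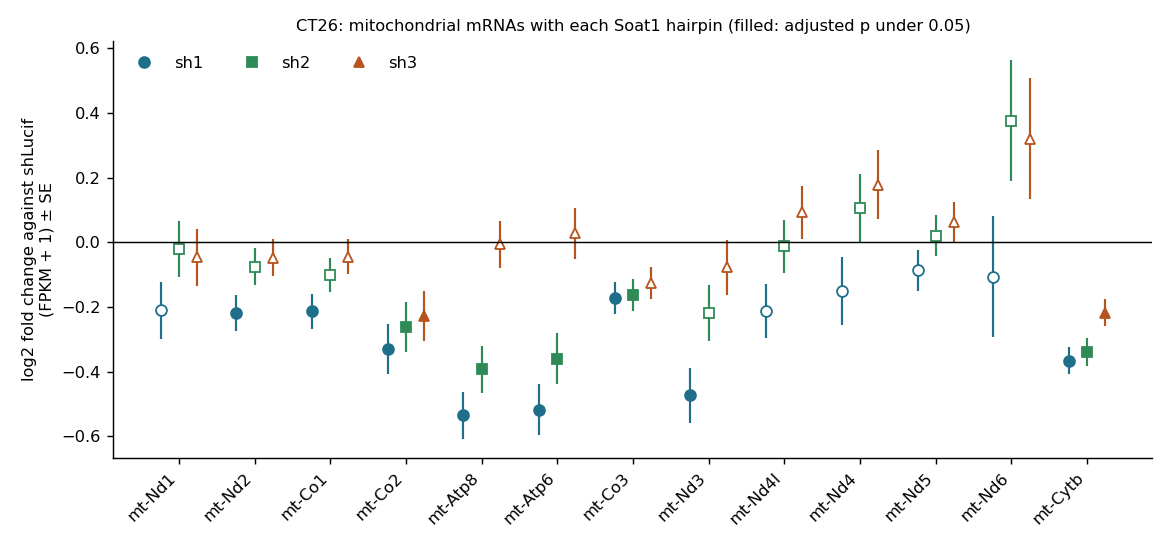
Log2 difference of each mitochondrial mRNA against shLucif in CT26, on the FPKM + 1 scale, with SE bars, for sh1 (circles), sh2 (squares) and sh3 (triangles); filled symbols passed an adjusted p of 0.05. The mt-Atp8 and mt-Atp6 points of sh1 and sh2 lie well below 0 and those of sh3 at 0, while all 3 points of mt-Co2 and mt-Cytb are filled and below 0.

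Nuclear genes of the chain were called lower more often than higher with each hairpin: 4 higher and 22 lower of 90 with sh1, 3 and 18 with sh2, and 8 and 29 with sh3. The sh1 count of lower genes was 9 without shLucif library 1, 14 without shLucif library 2 and 9 without sh1 library 3, its count of higher genes was 2 without sh1 library 1, and the sh2 count of lower genes was 11 without sh2 library 3. The share lower, 24.4%, 20% and 32.2%, stands beside 18.7%, 20% and 21.6% of all genes, so with sh2 it equalled the background. Of the 90, 5, 5 and 12 lay wholly above the controls and 34, 30 and 39 wholly below, where 25%, 25.1% and 35.8% of all genes lay above and 25.1%, 27% and 26% below. The share higher, 4.44%, 3.33% and 8.89%, was below the 19.1%, 18.9% and 30.9% of all genes. Complex I held 12, 11 and 15 of the lower calls among its 37 genes with sh1, sh2 and sh3, and 3, 1 and 4 higher calls. Ndufa4 is among these higher calls with each hairpin, counted here by its symbol though since placed in complex IV. Complex V gave 5, 4 and 3 lower calls of 15, complex IV 2, 2 and 4 of 12, and complex II 2, 1 and 1 of 4. In complex III no gene was called lower with sh1 or sh2 and 2 of 8 were with sh3.

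Called the same way with all 3 hairpins were 7 nuclear genes, of which 6 were lower. The hairpins share their control libraries and called 37.8%, 38.9% and 52.5% of all genes. The share of all genes called alike with all 3 is not given here, so the 7 are listed as a description. In complex I the lower ones were Ndufa1, Ndufa5 (an accessory subunit of the peripheral arm) and Ndufa9 (a subunit between the arms). Ndufa5 was 23.4, 21.01 and 22.9 FPKM with shLucif, 17.8, 18.7 and 16.1 FPKM with sh1, 17.8, 16.5 and 16.9 FPKM with sh2 and 13.99, 17.99 and 17.2 FPKM with sh3, differences of -0.34, -0.38 and -0.44 (adjusted p = 0.00884, 0.00506 and 0.00126). Ndufa1 was 63.7, 61.01 and 61.04 FPKM with shLucif, 52.3, 56.1 and 49.2 FPKM with sh1, 53.7, 48.5 and 50.7 FPKM with sh2 and 51.1, 47.1 and 52.6 FPKM with sh3, differences of -0.23, -0.28 and -0.30 (adjusted p = 0.00801, 0.00309 and 0.00122). Ndufa9 gave -0.26, -0.25 and -0.27. In Ndufa1 and Ndufa5 every hairpin library was below every control library.

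Among the genes with a Cox symbol both shared calls were of structural subunits of complex IV, and both were lower. Cox5a was 82.9, 83.01 and 85.3 FPKM with shLucif, 75.8, 65.3 and 66.1 FPKM with sh1, 74.7, 67.02 and 67.8 FPKM with sh2 and 73.7, 72.1 and 67.7 FPKM with sh3, differences of -0.28, -0.26 and -0.23 (adjusted p = 0.00432, 0.00618 and 0.00782). Cox6a1, the form of this subunit found outside muscle, was 346, 321 and 339.6 FPKM with shLucif, 297, 299 and 274 FPKM with sh1, 311, 279 and 272 FPKM with sh2 and 285, 284 and 287 FPKM with sh3, differences of -0.21, -0.23 and -0.23. Neither gene had a hairpin library inside the control range. Its muscle form Cox6a2, left out by the rule, was 23.7, 20.1 and 21.8 FPKM with shLucif, 8.23, 12.2 and 8.69 FPKM with sh1, 9.39, 10.02 and 8.98 FPKM with sh2 and 3.09, 3.64 and 4.58 FPKM with sh3, given as a description. The 7 muscle markers checked beside it summed to 4.42 to 4.68 FPKM with shLucif and 3.10 to 5.06 FPKM with the hairpins.

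Atp5b, the most abundant nuclear gene of the set, was 446, 434 and 441 FPKM with shLucif, 409.7, 427 and 391 FPKM with sh1, 413, 396 and 391.9 FPKM with sh2 and 367, 358 and 358 FPKM with sh3, differences of -0.11, -0.14 and -0.29 (adjusted p = 0.0408, 0.0122 and 6.58e-05). All hairpin libraries lay below the control range. Ndufa4, named for complex I and since placed in complex IV, was the only gene of the chain higher with all 3 hairpins. It was 55.5, 55.9 and 58.4 FPKM with shLucif, 74.04, 68.5 and 69.8 FPKM with sh1, 71.1, 68.4 and 66.8 FPKM with sh2 and 71.1, 66.1 and 66.8 FPKM with sh3, differences of 0.32, 0.28 and 0.26 (adjusted p = 0.00019, 0.000463 and 0.000407). Every hairpin library of Ndufa4 was above every control library.

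Promoter sequences were read for the nuclear genes from RefSeq (GRCm38.p6, 250 bases before to 50 after the start), where 75 of the 90 had an entry. The letters GCGCATGCGC, bound by the transcription factor NRF1, occur in 9.3% of these (7 genes) and in 1.07% of all 27025 promoters. The letters CCGGAAG of the ETS family, searched on both strands, occur in 28.0% (21 genes) and 9.93%. Of the 7 genes called the same way with all 3 hairpins, Cox6a1 alone holds either motif, and holds both. The stretch with its NRF1 letters in capitals is shown to place them, 152 bases before the start, on the minus strand of GRCm38.p6.
Cox6a1 (chr5:115349036-115349135, minus strand): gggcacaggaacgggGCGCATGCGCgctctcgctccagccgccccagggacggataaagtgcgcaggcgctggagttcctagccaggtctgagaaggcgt
A match is a description of letters, and no match says only that they are not in this window.

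The hairpins did not act alike on the chain, although a smaller share of its genes than of all genes differed between them. The third hairpin, sh3, was tested against the mean of sh1 and sh2, a comparison without the control libraries, in which 60.2% of all genes were called (35.5% higher, 24.7% lower). Of the 13 mitochondrial mRNAs 5 were called higher with sh3 and none lower (limma). At an unadjusted p under 0.05 there were 6 higher and 0 lower, and the share of all genes past that limit is not given here. The 5 called were mt-Atp6 (0.47 (SE 0.0687, adjusted p = 0.000134)), mt-Atp8 (0.46 (SE 0.0625, adjusted p = 7.57e-05)), mt-Nd3 (0.27), mt-Nd4l (0.21) and mt-Cytb (0.14). Of the nuclear genes 14 were higher and 18 lower, 15.6% and 20% of 90, both below the shares of all genes. The mt-Cytb call turned to the opposite direction under quantile normalization, and the mitochondrial mRNAs called higher were 11 without library 3 of sh1 and 3 without library 1 of sh3.

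Complex III held the clearest nuclear contrast between the hairpins. Uqcrq, a small subunit of that complex, was 64.5, 62.9 and 66.6 FPKM with shLucif, 76.8, 76.2 and 69.1 FPKM with sh1 (0.19 (SE 0.0575, adjusted p = 0.0227)), 80.7, 74.3 and 74.2 FPKM with sh2 (0.24 (SE 0.0575, adjusted p = 0.00762)) and 45.04, 40.7 and 45.9 FPKM with sh3 (-0.55 (SE 0.0575, adjusted p = 1.49e-05)). The sh1 and sh2 libraries were above the controls and those of sh3 below them, and sh3 differed from the mean of the other two by -0.76 (adjusted p = 2.65e-07). Uqcr10 was 81.3, 79.9 and 71.6 FPKM with shLucif, 79.9, 84.8 and 79.5 FPKM with sh1 (0.07 (SE 0.0544, adjusted p = 0.352)), 92.05, 86.04 and 84.9 FPKM with sh2 (0.17 (SE 0.0544, adjusted p = 0.0256)) and 60.4, 58.5 and 63.1 FPKM with sh3 (-0.35 (SE 0.0544, adjusted p = 0.000277)). Uqcrh, the hinge protein of complex III, went the other way, 33.7, 32.7 and 31.9 FPKM with shLucif, 31.8, 30.2 and 29.96 FPKM with sh1, 34.8, 31.3 and 27.5 FPKM with sh2 and 44.6, 45.5 and 39.4 FPKM with sh3 (0.39 (SE 0.0775, adjusted p = 0.00153)). Its sh3 libraries were above all others, so in this complex 2 small subunits were lower and 1 was higher with sh3.

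ATP synthase showed the same kind of split with sh3. Atp5a1 was 149, 145 and 149 FPKM with shLucif, 162, 148 and 138 FPKM with sh1, 148, 158 and 142 FPKM with sh2 and 236, 227 and 201 FPKM with sh3 (0.58 (SE 0.0683, adjusted p = 3.74e-05)). Its partner in the catalytic head, Atp5b, was lower with sh3, as given above. Atp5g1, a c subunit gene, was 20.2, 20.2 and 19.5 FPKM with shLucif, 18.1, 19.3 and 17.2 FPKM with sh1, 19.6, 17.1 and 17.5 FPKM with sh2 and 12.95, 12.3 and 13.5 FPKM with sh3 (-0.59 (SE 0.0584, adjusted p = 9.94e-06)). The sh3 libraries of Atp5a1 lay above and those of Atp5g1 below every other CT26 library of the experiment. In complex I, the subunit Ndufs4 was lower with sh3 (-0.50, adjusted p = 0.000738) and the assembly factors Ndufaf7 and Ndufaf6 were higher (0.37 and 0.31).

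**Figure D4:**
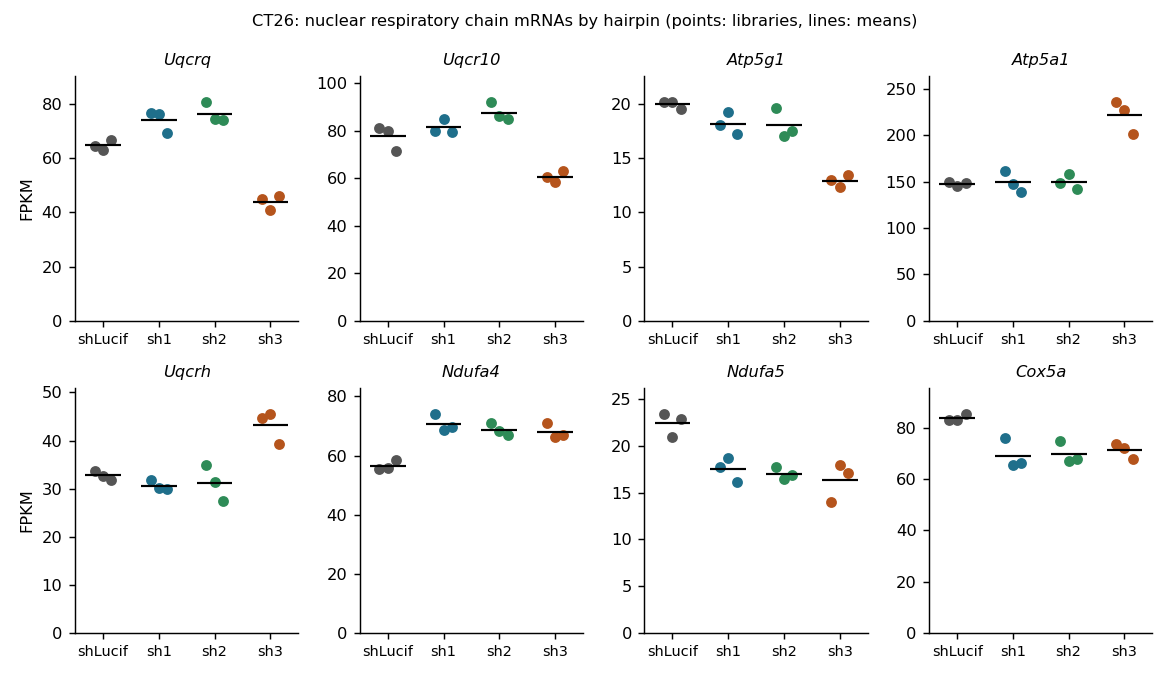
FPKM of 8 nuclear genes in the 12 CT26 libraries of the knockdown experiment, by hairpin, with points for libraries and lines for means. Uqcrq, Uqcr10, Atp5g1, Atp5a1 and Uqcrh separate sh3 from sh1 and sh2, whereas Ndufa4, Ndufa5 and Cox5a differ from shLucif in the same direction with each hairpin.

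Genes that serve the chain were counted in lists. Of 78 mitochondrial ribosomal protein genes 8, 7 and 8 were higher and 13, 14 and 36 lower with sh1, sh2 and sh3. The share lower, 16.7%, 17.9% and 46.2%, was below that of all genes with sh1 and sh2 (18.7% and 20%) and above it with sh3 (21.6%). Of 11 mitochondrial chaperones and proteases none, none and 2 were higher and 4, 5 and 6 lower (36.4%, 45.5% and 54.5% lower). Hspa9 was 819, 814 and 803 FPKM with shLucif, 564, 563 and 576 FPKM with sh1, 562, 547 and 568 FPKM with sh2 and 497, 505 and 555 FPKM with sh3, differences of -0.52, -0.54 and -0.65. Hspd1, the mitochondrial Hsp60, gave -0.48, -0.46 and -0.41. Lonp1, a matrix protease, was 199, 197 and 189 FPKM with shLucif and 106, 109.8 and 130.2 FPKM with sh3 (-0.76). These were the larger falls of the chaperone list. Uqcc1, an assembly factor of complex III, was 11.8, 10.3 and 11.3 FPKM with shLucif, 7.83, 7.12 and 7.36 FPKM with sh1, 9.69, 9.41 and 9.15 FPKM with sh2 and 5.14, 5.27 and 5.59 FPKM with sh3 (-0.53, -0.22 and -0.94).

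Other genes were higher. Cox15, which makes the heme A of complex IV, was 9.32, 10.2 and 9.36 FPKM with shLucif, 15.3, 14.9 and 15.3 FPKM with sh1, 15.1, 14.7 and 15.4 FPKM with sh2 and 11.3, 12.8 and 12.6 FPKM with sh3 (0.60, 0.59 and 0.31), and its list of 20 complex IV assembly factors and cytochrome c gave 6, 7 and 3 higher and 4, 2 and 5 lower (30%, 35% and 15% higher, against 19.1%, 18.9% and 30.9% of all genes). Cs, citrate synthase, was 68.8, 68.6 and 68.1 FPKM with shLucif, 82.5, 84.9 and 83.9 FPKM with sh1, 81.6, 84.97 and 80.8 FPKM with sh2 and 90.9, 86.96 and 87.8 FPKM with sh3. Both genes were higher with every hairpin. The 16 genes of the TCA cycle and pyruvate entry, Cs among them, mostly went the other way. Of these, 3, 2 and 4 were called higher and 6, 4 and 6 lower. The share lower was 37.5%, 25% and 37.5%, against 18.7%, 20% and 21.6% of all genes. The share higher, 18.8%, 12.5% and 25%, was below that of all genes. Of 22 genes for mitochondrial RNA processing and stability 4, 4 and 6 were higher and 1, 3 and 4 lower, shares of 18.2%, 18.2% and 27.3% higher and 4.55%, 13.6% and 18.2% lower that were all below those of all genes. Within that list Pnpt1, a mitochondrial RNA-degrading enzyme, was 28.3, 30.6 and 27.3 FPKM with shLucif, 37.5, 42.2 and 46.2 FPKM with sh1 (0.53), 46.9, 46.3 and 49.3 FPKM with sh2 (0.71) and 20.7, 20.99 and 21.4 FPKM with sh3 (-0.43). Grsf1, a protein of mitochondrial RNA granules, was 24.2, 27.4 and 28.4 FPKM with shLucif and 44.2, 45.4 and 40.6 FPKM with sh3 (0.68). Both separated sh3 from the other hairpins.

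Of 16 genes of mitochondrial DNA maintenance and transcription 3, 2 and 7 were higher (18.8%, 12.5% and 43.8%) and 2, 1 and 1 lower (12.5%, 6.25% and 6.25%). Over all genes 19.1%, 18.9% and 30.9% were higher and 18.7%, 20% and 21.6% lower with sh1, sh2 and sh3. Of 10 nuclear regulators of respiratory genes tested 2 were higher with each hairpin (20%) and 3, 3 and 4 lower (30%, 30% and 40%). Their share higher was thus near that of all genes with sh1 and sh2 and below it with sh3. Gabpa, an ETS factor known to act on these genes, was 13.7, 14.3 and 15.1 FPKM with shLucif, 9.58, 9.86 and 10.3 FPKM with sh1 (-0.49), 10.4, 11.6 and 11.98 FPKM with sh2 (-0.32) and 14.97, 15.9 and 16.7 FPKM with sh3 (adjusted p = 0.0883). Esrra, a nuclear receptor that acts on many of them, was 6.08, 6.36 and 7.04 FPKM with shLucif, 9.77, 10.2 and 8.20 FPKM with sh1, 8.69, 8.55 and 9.66 FPKM with sh2 and 10.3, 11.4 and 9.65 FPKM with sh3 (0.47, 0.41 and 0.61). Gabpa and Esrra thus moved in opposite directions with sh1 and sh2. Of 20 mitochondrial tRNAs 8 were lower and none higher with sh1 (40% lower), none lower and 1 higher with sh2, and 1 lower and 2 higher with sh3.

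The nuclear gene whose level followed the mean of the mitochondrial mRNAs most closely over the 12 CT26 libraries of this experiment was Ndufaf1, a complex I assembly factor (Pearson correlation 0.876 of log2 values), followed by Ndufv3 (0.639) and Ndufv2 (0.623), both of the NADH-binding part of complex I. The median Pearson correlation over the 90 genes was 0.128. By Spearman's correlation Ndufv2 (0.853) stood above Ndufaf1 (0.818). These libraries share 4 groups and their scaling, so the values are a description.

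The pair of control hairpins in Hepa1-6 rests on the libraries that went against their label. Scramble was compared with the libraries labelled Hepa1-6 shLucif, and 68.2% of all genes were called (31.4% higher, 36.8% lower). Of the mitochondrial mRNAs 4 were higher and 2 lower, and of 89 nuclear genes 14 were higher and 40 lower. Of the 90, 16 lay wholly above and 45 wholly below, against 33.7% and 39.5% of all genes. mt-Co3 was 2353, 1907 and 1901 FPKM in the libraries labelled Hepa1-6 shLucif and 3053, 3089 and 3109 FPKM in scramble (0.59 (SE 0.0872, adjusted p = 0.000833)), and mt-Nd6 1299.8, 878 and 887 against 676, 717 and 697 FPKM (-0.53 (SE 0.149, adjusted p = 0.0171)). Neither gene overlapped. Library 1 of those labelled Hepa1-6 shLucif had a summed mitochondrial level of 47994 FPKM, against 37272 and 36845 FPKM in the other two, and without it 9 mitochondrial mRNAs were called higher and 3 lower in scramble. Leaving out any other library of this comparison gave 1 or 2 higher (1 without library 2 or 3 of those labelled Hepa1-6 shLucif), and 0 were lower without scramble library 1. Against CT26 shLucif, the libraries labelled Hepa1-6 shLucif had 3 mitochondrial mRNAs higher (5 without their library 3) and 2 lower (1 without CT26 shLucif library 2 or 3 or their library 2 or 3), and 27 nuclear genes higher and 31 lower of 90, where 72.4% of all genes were called (39.4% higher, 33% lower). Without overlap, 28 nuclear genes lay above and 33 below, against 41.2% and 34.1% of all genes. With those libraries left out of the model, the scramble against CT26 shLucif comparison above called 80 genes of the chain in place of 77.

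Several nuclear genes of complexes IV and V separated these libraries from scramble. Cox7a2l, a factor that joins complexes III and IV, was 104, 104 and 63.2 FPKM in the libraries labelled Hepa1-6 shLucif and 24.7, 22.7 and 22.9 FPKM in scramble (-1.87 (SE 0.188, adjusted p = 0.000124)). The 3 former values were all higher but spread widely. Atp5e, the epsilon subunit of ATP synthase, was 25.97, 25.2 and 24.8 against 15.2, 13.9 and 15.5 FPKM (-0.73 (SE 0.0498, adjusted p = 1.69e-05)), and Ndufa1 41.4, 40.5 and 44.2 against 26.2, 22.3 and 23.5 FPKM (-0.79 (SE 0.0657, adjusted p = 4.85e-05)). Cox6c was higher in scramble, 32.4, 34.5 and 34.2 against 53.4, 49.2 and 51.7 FPKM (0.60 (SE 0.0442, adjusted p = 2.63e-05)). No group overlapped in these genes. Complex V gave 2 higher and 9 lower of 15, and complex IV 1 and 7 of 12.

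Last, stk was compared with DMSO in each line. No mitochondrial mRNA was called in either line (limma). At an unadjusted p under 0.05 there were 4 higher and 1 lower in CT26 and 1 higher and 3 lower in Hepa1-6. The share of all genes past that unadjusted limit is not given here, so nothing is read from these counts. In CT26 1 of 88 nuclear genes was called, lower, where 0.748% of all genes were called (0.132% higher, 0.616% lower). In Hepa1-6 3 of 88 were called, all lower, where 1.53% of all genes were called (0.683% higher, 0.849% lower). The median nuclear difference was -0.07 in CT26 and -0.14 in Hepa1-6, against -0.01 and 0.00 for all genes, and 70 and 74 of the 88 values were below 0. Of the 90 nuclear genes, 3 lay wholly above and 25 wholly below DMSO in CT26 (9.42% and 12% of all genes), and 2 and 35 in Hepa1-6 (16.2% and 14.6%). The 13 mitochondrial mRNAs had medians of 0.02 and -0.03.

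The gene called in CT26 was Atp5e, at 25.7, 24.5 and 26.1 FPKM with DMSO and 17.9, 19.5 and 19.4 FPKM with stk, means of 25.4 ± 0.840 and 18.95 ± 0.895 FPKM (SD, n = 3) and a difference of -0.41 (SE 0.0486, adjusted p = 0.0245) without overlap. In Hepa1-6 it was 24.1, 21.98 and 22.8 FPKM with DMSO and 19.5, 18.9 and 16.01 FPKM with stk, a value of -0.33 that was not called (adjusted p = 0.0776). The genes called in Hepa1-6 were Ndufv2 and Ndufa5 of complex I and Uqcrfs1 of complex III. Ndufv2 was 36.5, 38.2 and 40.2 FPKM with DMSO and 30.8, 30.7 and 28.7 FPKM with stk (-0.34 (SE 0.0497, adjusted p = 0.0422)). Ndufa5 was 19.5, 20.2 and 18.6 against 16.2, 14.6 and 15.2 FPKM (-0.32 (SE 0.0542, adjusted p = 0.0471)). Uqcrfs1 was 114, 111 and 111 against 100.2, 98.5 and 94.9 FPKM (-0.20 (SE 0.0336, adjusted p = 0.0497)). In all 3 every stk library was below every DMSO library. In CT26 these genes had values of -0.31, -0.17 and -0.01, none of them called. A line difference in the response was called for none of 101 genes of the chain (limma, 0.304% of all genes). An unadjusted p under 0.05 was found for 4 of 13 mitochondrial and 7 of 88 nuclear genes, and the share of all genes is not given here.

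Among the genes not called, the largest value in CT26 was that of a small subunit. Cox7a2 of complex IV was 74.4, 73.1 and 73.7 FPKM with DMSO and 43.8, 58.2 and 49.6 FPKM with stk in CT26 (-0.55 (SE 0.0945, adjusted p = 0.0627)), without overlap, and -0.40 in Hepa1-6 (adjusted p = 0.159). Ndufb4 of complex I gave -0.48 in CT26 (adjusted p = 0.0549), and Cox8a of complex IV -0.37 (adjusted p = 0.474). In Hepa1-6 the largest was that of Cox7a2l, at 26.04, 72.1 and 78.6 FPKM with DMSO and 71.8, 24.7 and 21.1 FPKM with stk (-0.64 (SE 0.569, adjusted p = 0.535)), with groups that overlapped through 1 library of each. The assembly factor Ndufaf8 and the subunit Ndufa1 of complex I gave -0.38 and -0.36 (adjusted p = 0.131 and 0.0881). mt-Nd3 was 505, 479.7 and 553 FPKM with DMSO and 444, 426 and 454 FPKM with stk in CT26 (-0.21, adjusted p = 0.166), and 589, 605 and 602 against 532, 513 and 434 FPKM in Hepa1-6 (-0.29, adjusted p = 0.0891). It was the lowest mitochondrial value in both lines, with no overlap in either.

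Gene length moved with the stk values. Over all genes tested, Spearman's correlation between the log2 difference and the exon length was 0.182 in CT26 and 0.26 in Hepa1-6, and over the 88 nuclear genes 0.313 and 0.391 (across genes, which are not replicates). The nuclear genes of the chain were short, with a median exon length of 1795 bases against 4007 and 3936 bases. With the trend removed, 2 genes of the chain were called in CT26 and 1 in Hepa1-6. The calls were few and did not hold under every setting: none was made in either line without a filter on low levels or with a replicate block, and leaving out any library of Hepa1-6 ended all 3. In CT26 the Atp5e call was lost without any DMSO library or without library 1 of stk.

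Of the genes that serve the chain, none of the lists held a call in CT26 with stk. In Hepa1-6 Usmg5, a small subunit of ATP synthase outside the prefixes, was lower (-0.42), as was the tRNA mt-Te (-0.27), and the tRNA mt-Ty was higher (0.24).

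**Figure D5:**
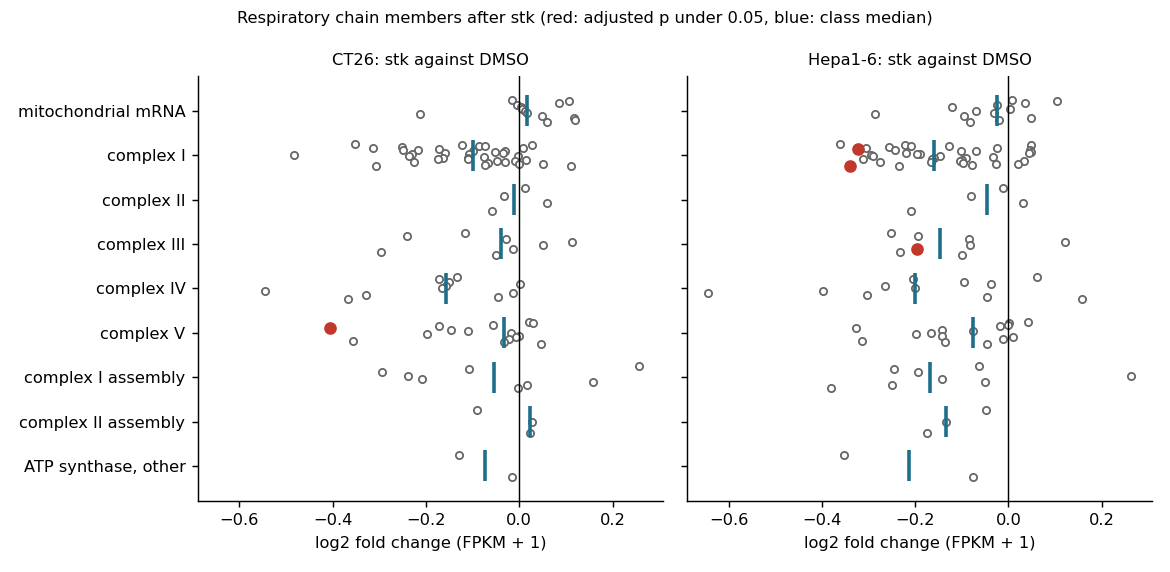
Log2 difference with stk against DMSO (FPKM + 1 scale) of each tested gene of the chain, by class, in CT26 (left) and Hepa1-6 (right), with class medians as blue bars and genes past an adjusted p of 0.05 in red. Most nuclear points lie left of 0 in both lines, and 1 gene is red in CT26 and 3 in Hepa1-6.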

How the data were processed

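Expression was measured by RNA sequencing of total RNA in 45 labelled samples, of which 30 matched a column and were used (10 groups of 3); 21 further columns of the tables matched no label and were not used here. The authors deposited FPKM, 1 table per experiment, so read totals are unknown. The names of the tables give the experiments the other way round from their column headers, and each table was assigned by its headers. The lowest FPKM steps (values under 0.05, tolerance of 0.01 on the log2 scale) gave relative depths of 0.895 to 1.125 (drug) and 0.883 to 1.301 (knockdown). Reads were paired and, per the labels, trimmed with Skewer. GRCm38, HISAT2, STAR, DESeq2 and edgeR stand in the submitters' processing notes, and which of them made the FPKM is not given in the sources used here.

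Differences were tested on log2(FPKM + 1), which understates changes of low genes, with limma 3.58.1 (mean-variance trend) in R 4.3.3. Models were fitted per experiment and line, and comparisons between lines or on the difference in response used a model over both lines. Genes with at least 1 FPKM in 3 libraries entered the two-sided test, and a call is a Benjamini-Hochberg adjusted p below 0.05 over all of them. Scripts were tested on simulated data. Named by rule were the mitochondrial mRNAs, the called nuclear genes with the largest differences (up to 8 in each direction, or, with fewer than 4 called, the 4 largest), up to 3 called genes of each related list and the 5 genes most like the mitochondrial mean. Genes called alike in all 3 hairpins, and Atp5g1, Atp5g3, Atp5b and Atp5a1 beside them, were named with their values seen. A result that the rule would name is not reported here. The members, gene lists and tests were chosen with earlier results of these data known. Same-numbered libraries deviated from their group means with correlations between -0.026 and 0.097, so the numbers were not taken to pair them. Alternatives were another pseudocount (0.1), no filter or a minimum of 5 FPKM, quantile normalization, equal sums of the genes not encoded on mitochondrial DNA, a replicate block and leaving out each library; removal of the trend with exon length, and leaving out the libraries labelled Hepa1-6 shLucif, were added after seeing the data.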

Additional observations from a re-analysis of the deposited data

Results flagged for a closer look

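The Soat1 hairpins differed among themselves in CT26 in 37 genes of the chain, by the test of sh3 against the sh1 and sh2 mean (limma, adjusted over all genes; log2 of FPKM + 1, 3 libraries per hairpin). The values are given for the called mitochondrial mRNAs and for the 8 called nuclear genes with the largest such differences in each direction, and 60.2% of all genes were called in this comparison. The share of the chain, 37 of 103, was below that.

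The mitochondrial mRNAs were all higher with sh3: mt-Atp6 by 0.47 (adjusted p = 0.000134), mt-Atp8 by 0.46, mt-Nd3 by 0.27, mt-Nd4l by 0.21 and mt-Cytb by 0.14 (adjusted p = 0.00805). Quantile normalization turned the mt-Cytb value negative. The mitochondrial rRNA mt-Rnr2 was 243, 253 and 394 FPKM with sh1, 419.9, 384 and 382 FPKM with sh2 and 376, 354 and 357 FPKM with sh3. Library 3 of sh1 was the highest of its group in it, as in the mitochondrial mRNAs. Its part in these differences is seen in the count without it, 11 mitochondrial mRNAs higher in place of 5; without library 1 of sh3 there were 3.

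The nuclear genes higher with sh3 were Atp5a1 by 0.56, Uqcrh by 0.47, the complex I assembly factor Ndufaf7 by 0.41, Atp5sl by 0.33, Ndufaf6 by 0.32, Cox7a2 by 0.30 (adjusted p = 0.0418), Ndufv3 by 0.29 and Ndufa7 by 0.26. Lower with sh3 were Uqcrq at -0.76 (adjusted p = 2.65e-07), Uqcr10 at -0.47, Atp5g1 at -0.46, Ndufaf8 at -0.43, Sdhaf3 at -0.38, Cox4i1 at -0.32, Ndufs4 at -0.29 and Ndufa12 at -0.29. Cox4i1 and Atp5a1 share exon bases with a gene on the opposite strand, and their part was not tested. Sdhaf3, a complex II assembly factor, was close to 1 FPKM throughout (1.18, 1.36 and 1.10 FPKM with sh1, 1.42, 1.27 and 1.24 FPKM with sh2 and 0.668, 0.701 and 0.824 FPKM with sh3).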

How the results depend on the processing

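For genes of the chain called, 0 were called with stk in CT26 without a filter, 5 at a minimum of 5 FPKM, 2 with quantile normalization and 2 with the length trend removed, against 1; leaving out a library gave 0 to 1. In Hepa1-6, against 3, there were 0 without a filter and 1 with the length trend removed, and 0 without any 1 library. With sh1 (34 called) no filter gave 18 and leaving out a library 19 to 29 (19 without shLucif library 1); with sh2 (26) 17 and 17 to 29 (17 without sh2 library 3); for the mean of the 3 hairpins (38) leaving out a library gave 25 to 41 (25 without shLucif library 1). The other counts over the whole chain stayed within 1.5 times. For sh3 against the sh1 and sh2 mean, 19 higher and 18 lower became 30 and 17 with quantile normalization and 28 and 17 with equal nuclear sums.

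Quantile normalization assigns values by rank, and mitochondrial mRNAs hold the top ranks. It reversed mt-Nd4 (0.07) and mt-Nd4l (0.22) in Hepa1-6 against CT26 with DMSO, mt-Nd1 with sh1 (0.14), sh2 (0.23) and the mean of the hairpins (0.12), mt-Nd1 (-0.18) and mt-Cytb (-0.20) in sh3 against the sh1 and sh2 mean, mt-Nd2 (-0.27) and mt-Nd4 (-0.023) in scramble against the libraries labelled Hepa1-6 shLucif, mt-Nd5 in those against CT26 shLucif (0.27) and mt-Nd2 in scramble against CT26 shLucif (-0.20). Of 4201 values of named genes under the alternatives, 3895 kept direction and call, 219 lost and 76 gained it, and these 11 turned.

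The replicate numbers are shared only as numbers. With a replicate block 0 genes were called with stk in either line, 36 with sh2, 48 with sh3 (39 without), 66 in Hepa1-6 against CT26 with DMSO (66), 57 in scramble against shLucif (60), 72 in the libraries labelled Hepa1-6 shLucif against CT26 shLucif (63) and 82 in scramble against CT26 shLucif (77). No paired analysis was possible for sh1 and the comparisons that use it, because its columns carry no matching number. Depth is unknown, so no counting limit can be given.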

Other observations

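A few genes of the chain varied among libraries of the same group far more than the rest. Of 930 pairs of a gene and a group with a mean of at least 5 FPKM, 24 pairs, from 7 genes, had a highest library over 1.5 times the lowest. Cox8a, a small subunit of complex IV, was 267, 265 and 134 FPKM in CT26 shLucif, 146, 132 and 242 FPKM with sh1, 262, 135 and 250.2 FPKM with sh2 and 157, 155 and 311 FPKM in the libraries labelled Hepa1-6 shLucif. In each of these groups its libraries fell near either of a pair of levels. Cox7a2l was 26.04, 72.1 and 78.6 FPKM in Hepa1-6 with DMSO and 71.8, 24.7 and 21.1 FPKM with stk, with 1 library of each group near the level of the others, while scramble held 24.7, 22.7 and 22.9 FPKM. Ndufaf4, a complex I assembly factor, was 8.82, 3.84 and 4.30 FPKM with sh1, 3.82, 4.08 and 9.92 FPKM with sh2, 7.89, 3.58 and 3.72 FPKM with sh3 and 4.24, 4.31 and 11.1 FPKM in scramble. None of these 3 genes shares exon bases with another annotated gene, and the cause of the split was not tested.

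The mitochondrial ribosomal RNAs and mRNAs did not order the groups alike. mt-Rnr1 was 97.2, 96.8 and 117 FPKM in CT26 shLucif and 171, 133 and 151 FPKM with sh2, where the difference was called higher (0.54, adjusted p = 0.025) while 5 mitochondrial mRNAs were called lower. In the libraries labelled Hepa1-6 shLucif it was 291, 217 and 244 FPKM, against 124, 115 and 124 FPKM in scramble.

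Cox7a1, the form of the complex IV subunit 7a known from muscle, was above 1 FPKM in every library of a single group, those labelled Hepa1-6 shLucif, at 1.14, 1.32 and 1.07 FPKM, against 0.182, 0 and 0.247 FPKM in scramble and 0.460, 0.447 and 1.15 FPKM in CT26 shLucif. The 7 muscle markers summed to 8.58 to 8.83 FPKM in these libraries, against 5.60 to 6.15 FPKM in scramble and 4.42 to 4.68 FPKM in CT26 shLucif. Their part in the Cox7a1 level was not tested.

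By Pearson correlation, the nuclear gene that followed the mean of the mitochondrial mRNAs most closely was a different one in each line and experiment. Lower ranks were partly shared: the complex II assembly factor Sdhaf2 was the next gene in both lines of the drug experiment (0.652 in CT26 and 0.881 in Hepa1-6). In the drug experiment the first gene was Ndufs8 in CT26 (Pearson correlation 0.713 over 6 libraries) and Ndufs1 in Hepa1-6 (0.883 over 6 libraries), and in the knockdown experiment Ndufb8 in the 6 libraries labelled Hepa1-6 (0.889). The medians over the nuclear genes were -0.413, 0.142 and -0.1. The first gene depended on the measure. Spearman's correlation was taken only for the 5 genes highest by Pearson. In the drug experiment, Ndufaf6 and Ndufa10 (both 0.657) then stood above Ndufs8 (0.543) in CT26. In Hepa1-6 of that experiment, Ndufaf6 and Sdhaf2 (both 0.829) stood above Ndufs1 (0.714). These values are a description, since libraries of a group share their scaling.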
